A study of Mus musculus with 4 samples.

Results

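Complex IV (cytochrome c oxidase) and ATP synthase (complex V) are the last enzymes of oxidative phosphorylation, and their nuclear-encoded subunits were examined in mouse late 2-cell embryos injected with siRNA against Uqcc3, an assembly factor of complex III. The members were a list of 32 subunit genes, taken by gene symbol from the deposited tables, with both general and tissue-restricted isoforms. Of these, 31 were among the 47445 gene identifiers in the tables, and Cox4i1, the general form of subunit 4, was not analysed here. The complex IV genes numbered 15 and the ATP synthase genes 16.

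The embryos were C57BL/6N, from females of 8 weeks, and the series asks what loss of Uqcc3 does to early development. In the siRNA group (n = 2 libraries), siRNA to Uqcc3 was injected at 5 µM, 8 hpi, which the labels do not spell out. For the control group (n = 2 libraries), the protocol names a negative-control siRNA given in the same way, while the treatment label says that nothing was given and the design text calls the embryos normal, so injection of the controls is not settled. Oligo(dT) primed the full-length cDNA, which was amplified with a single-cell kit. How many embryos went into a library is not stated, a knockdown by siRNA is transient and partial, and no rescue was analysed here. Nothing states that the libraries of a group came from separate mice, so p-values reflect only library-to-library spread, which may be technical. Sample titles end differently in the groups, and if it marks a batch, batch and treatment cannot be told apart.

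Complex IV takes electrons from cytochrome c, passes them to oxygen and pumps protons across the inner mitochondrial membrane, and ATP synthase lets the protons back through a rotating ring of c subunits to make ATP. The catalytic core of complex IV and subunits of the proton channel of ATP synthase are encoded in mitochondrial DNA. The nuclear genes studied here encode the subunits around that core, the ATP-making head, the stalks and the c ring. The early embryo lives on mitochondria inherited from the oocyte and uses pyruvate as its main fuel until about the blastocyst stage.

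The siRNA target was measured at 147 and 211 FPKM (fragments scaled to transcript length and to the depth of the library) in controls 1 and 2, and at 23.7 and 19.8 FPKM in siRNA libraries 1 and 2. The log2 difference of Uqcc3 was -2.97 (SE 0.63), short of the Benjamini-Hochberg threshold of 0.05 in limma (adjusted p = 0.745). Implied depth was about 16200000 and 18100000 fragments in the controls and 11300000 and 11500000 in the siRNA libraries. Library 2 of the siRNA group stood apart: over the 12390 genes tested its Pearson correlation with the others was 0.624 to 0.651, against 0.867 to 0.875 among the other 3, as a description. It had 9771 genes at 1 FPKM or more, while the others had 11818 to 12202. An 18S ribosomal RNA gene, Rn18s-rs5, was at 14506 FPKM in it and at 183 to 1023 FPKM elsewhere. Mitochondrially encoded mRNA made up 3.41% of its summed FPKM, against 9.98% to 17.9% in the others. The summed FPKM of 11 markers of the 2-cell embryo was 1478 and 1817 in the controls and 1011 and 583 with siRNA, with 10 of the 11 lower with siRNA. Of all tested genes, 64.1% were lower. Of 10 oocyte and zygote markers, 6 were higher and 4 lower with siRNA. Dppa3 alone, a maternal factor, was at 10131, 12086, 8371 and 3004 FPKM in controls 1 and 2 and siRNA libraries 1 and 2, and the other 9 summed to 235, 263, 271 and 396 FPKM in that order. Markers of other cells summed to low values in every library. The 12 cumulus and granulosa markers summed to 9.04 to 22.5 FPKM. Amh and Fshr were at 0 throughout, but Amhr2 was at 5.16 to 7.58 and Tnfaip6 at 0.602 to 14.1. The 10 sperm markers summed to 37.2 to 54.8 FPKM, with Akap4 at 0 throughout but Ldhc at 15.9 to 22.4 and Odf2 at 6.35 to 14.6. Pgk2 was at 0.0542 to 17.2 and Prm2 at 0 to 12.3. The 9 blood markers summed to 9.52 to 36.0 FPKM, with Hba-a1 at 0 to 18.8 and Hba-a2 at 0 to 9.76.

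Sequence bears on how these members can be read in 2 ways, and it is shown first. The gene Atp5g1 encodes the c subunit of the ATP synthase ring and lies at chr11:96068852-96075670 on the minus strand (GENCODE M21, mm10) with 5 exons. Its coding sequence of 411 bases has an annotated copy, Gm10039, a processed pseudogene at chr11:100361716-100362126, also on the minus strand. The pair differ by 1 substitution, G385A, counted from the A of the start codon of Atp5g1. The last 57 coding bases (355 to 411) hold it, and the capital letter marks it.
Atp5g1: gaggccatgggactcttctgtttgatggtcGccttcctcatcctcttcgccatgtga
Gm10039: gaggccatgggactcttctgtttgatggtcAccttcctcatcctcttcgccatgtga
Outside this single base, a fragment from the coding sequence has the same letters at both places, apart from splice junctions and the flanks.

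The other set is the start-site region of Cox6b1 and Cox6b2, general and testis isoforms of the same subunit whose levels are compared below, and of Cox6a1 and Atp5g1, which had the smallest p among complex IV and ATP synthase members. Each is read 5′ to 3′ toward the start site, from the RefSeq promoter table (GRCm38.p6), without any base inside the annotated gene. Capitals mark a match to NRF-1, a factor known for binding promoters of respiratory chain genes, written as CGCATGCG.
Cox6b1, chr7:30626152-30626364, minus strand: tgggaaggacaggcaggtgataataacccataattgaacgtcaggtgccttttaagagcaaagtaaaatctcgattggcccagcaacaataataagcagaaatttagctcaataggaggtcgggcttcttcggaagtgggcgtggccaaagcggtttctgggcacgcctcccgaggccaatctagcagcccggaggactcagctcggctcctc
Cox6b2, chr7:4753095-4753344, minus strand: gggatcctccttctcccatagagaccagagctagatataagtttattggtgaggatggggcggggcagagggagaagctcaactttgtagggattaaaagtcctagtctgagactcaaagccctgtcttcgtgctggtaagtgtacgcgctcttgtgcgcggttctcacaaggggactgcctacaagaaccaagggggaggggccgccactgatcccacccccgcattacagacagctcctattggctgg
Cox6a1, chr5:115348982-115349208, minus strand: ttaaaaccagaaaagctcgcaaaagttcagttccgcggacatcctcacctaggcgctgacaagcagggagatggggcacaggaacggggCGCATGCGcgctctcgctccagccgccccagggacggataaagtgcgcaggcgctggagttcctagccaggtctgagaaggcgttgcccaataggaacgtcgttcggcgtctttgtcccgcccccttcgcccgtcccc
Atp5g1, chr11:96075671-96075881, minus strand: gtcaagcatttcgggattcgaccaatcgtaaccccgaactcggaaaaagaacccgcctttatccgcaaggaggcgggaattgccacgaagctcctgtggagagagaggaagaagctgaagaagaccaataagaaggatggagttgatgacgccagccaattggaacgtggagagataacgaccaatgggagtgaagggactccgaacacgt
The motif was searched on both strands in the 250 bases before the start of every gene in that table, where 26 of the 32 members were matched. It stood in the windows of Cox6a1, Atp5k, Atp5l and Atp5g2, which is 15.4% of the member promoters, and in 428 of 27025 promoters overall (1.58%). In Cox6a1 its first base was 161 bases before the RefSeq start, which lies 23 bases inside the annotated gene, so the printed sequence ends before that start. CCGGAAGT, a form of the ETS site bound by GABP, stood in 1 member promoter (Atp5h) and in 2.93% of all. AAGATGGC, a form of the YY1 site, stood in no member promoter and in 1.59% of all. These are matches of letters in a fixed window and say nothing of binding.

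No member passed the test between siRNA and control embryos, and neither did any other gene (0.0% of 12390 in either direction, limma with Benjamini-Hochberg adjustment, smallest adjusted p 0.564). Of the 31 members, 30 were tested, and Atp5g2 was below the filter of at least 1 FPKM in at least 2 libraries. Unadjusted p was under 0.05 for 738 genes, 646 lower with siRNA (5.21%) and 92 higher (0.743%). Among these were 3 members, Cox5a, Cox6a1 and Atp5g1, all lower. Adjusted p of the members ran from 0.745 to 0.998. An exact permutation test of 2 libraries against 2 cannot give a two-sided p below 0.333.

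Both siRNA libraries lay below both controls for 18 of the 30 tested members, 10 of 15 in complex IV and 8 of 15 in ATP synthase. The same was true of 3723 tested genes (30.0%), and of 41.4% of the 1333 tested genes with transcripts of 558 to 949 bases, the middle range of the members. Both lay above both controls for 0 members and for 1065 genes (8.6%). Taken singly, siRNA library 1 was below both controls for 22 members (48.3% of all genes). Library 2 was below both for 23 (50.6% of all genes). Since all tested genes together had a median log2 difference of -0.39, an offset from it is given for both complexes and for each of their parts whose median is printed. Of all tested genes 64.1% had a log2 difference below 0. That median moved to between -0.084 and 0.012 under the scalings tried (TPM, median-of-ratios, quantile, or without mitochondrially encoded and ribosomal RNA), and under those 18 to 21 of the 30 members lay lower with siRNA, against 26 on the deposited scale. In bulk libraries, fewer cells that express a gene and less RNA per cell cannot be told apart.

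**Figure D1:**
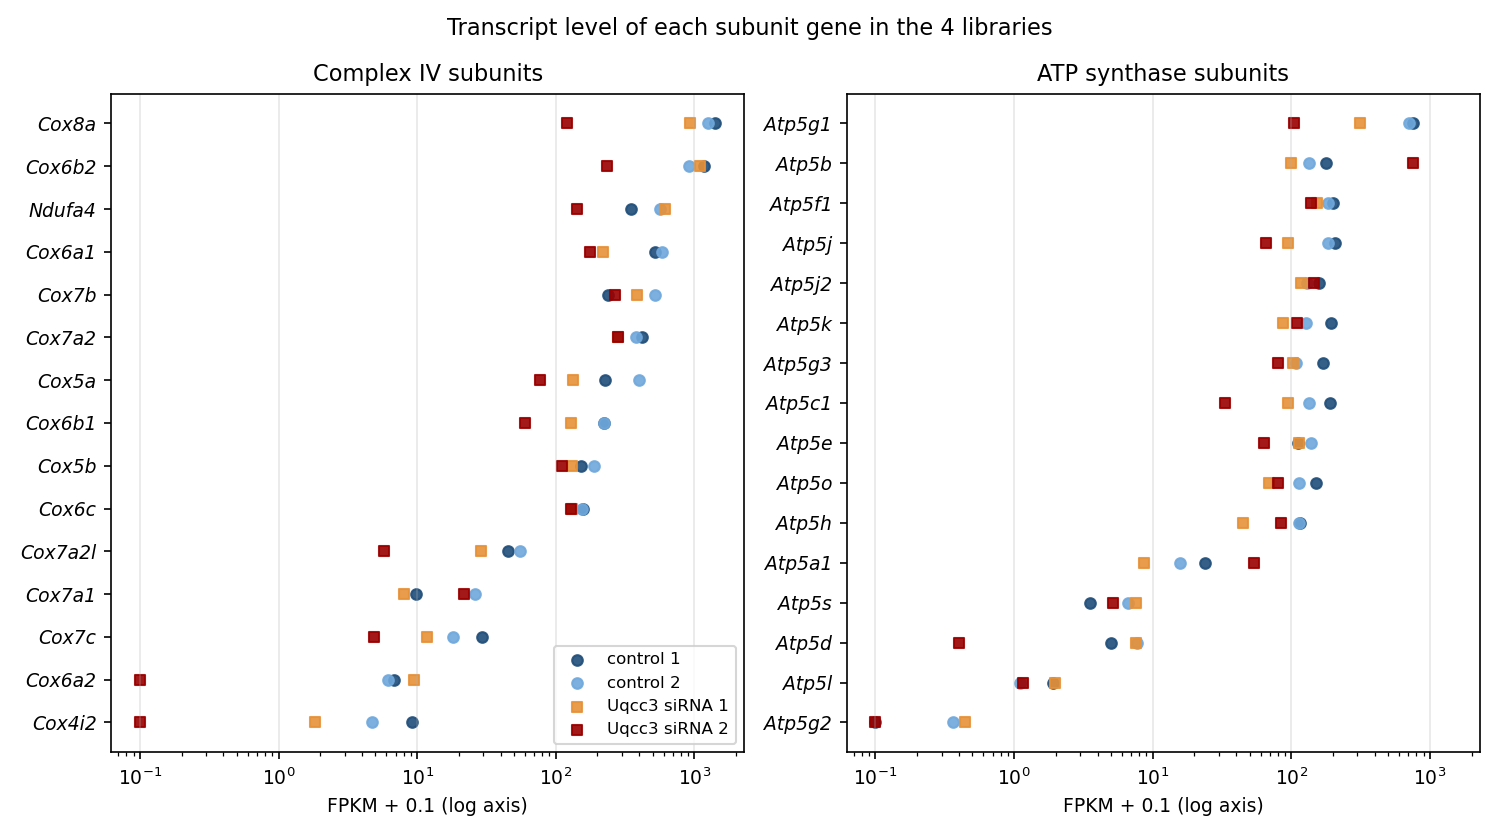
FPKM of each member in the 4 libraries on a log axis with 0.1 added, complex IV on the left and ATP synthase on the right, circles for controls and squares for siRNA, in order of mean level. The highest members were Cox8a and Cox6b2, and siRNA library 2 (dark red) lay furthest left for most short genes but furthest right for Atp5b.

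Complex IV subunits were lower with siRNA in all 15 tested members on the deposited scale, beside 64.1% of all tested genes and 81.4% of genes of like length (552 to 703 bases, 522 genes), with a median log2 difference of -1.20 against -0.39 for all genes, an offset of -0.81. The siRNA libraries differed: the median was -0.53 in siRNA library 1 and -1.88 in library 2. The genes of like length had medians of -0.31 and -1.46 in the same libraries. The offset of the complex IV median was -0.22 without siRNA library 2 and -1.31 without siRNA library 1. It was -0.27 after correction for transcript length, -0.57 with the filter at 5 FPKM and -1.13 with no filter on low values. The median of -1.20 is the value of Cox6a2, a gene at 0 to 9.45 FPKM whose siRNA libraries lay on either side of the controls. Under the scalings named above Cox6c, Cox7a1 and Cox7b lay higher with siRNA in each of the 4, Cox7a2 in 2 and Cox5b in 1. After length correction these same genes also lay higher. So 15 of 15 holds only on the deposited scale and over both siRNA libraries together. In siRNA library 1 alone, Cox6a2 (0.50), Cox6b2 (0.10), Cox7b (0.14) and Ndufa4 (0.45) lay above the control mean. In library 2 alone, Cox7a1 (0.41) did.

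Subunits 4 and 5 line the core of the enzyme. Cox4i2, the isoform of subunit 4 known from lung and low oxygen, was low, at 9.13 and 4.63 FPKM in controls 1 and 2 and at 1.73 and 0 in siRNA libraries 1 and 2. Both siRNA values were below both controls, with a log2 difference of -2.19 (SE 0.99, adjusted p = 0.745). Cox5a was at 226 and 397 FPKM in the controls and at 132 and 76.5 with siRNA, again without overlap. Its mean was 311 ± 121 FPKM in controls and 104 ± 39.5 with siRNA (SD, n = 2), 33.5% of control, a log2 difference of -1.56 (SE 0.64, adjusted p = 0.745). Cox5b, its zinc-binding partner, had values from 110 to 190 FPKM with both siRNA libraries below both controls and a log2 difference of -0.50. The Cox5a transcript shares 269 bases (41.7%) with Gm26631 on the opposite strand. The kit is not stated to mark strand, so fragments there cannot be assigned with certainty. Gm26631 was low, at 0.0483 and 0.873 FPKM in controls and at 0.668 and 2.94 with siRNA.

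The subunit 6 genes had a median log2 difference of -1.20 over 5 members, an offset of -0.81, beside a median of -0.92 over genes of like length (552 to 703 bases). That median is the value of Cox6a2. By library, the median of the 5 was -0.24 in siRNA library 1 and -1.88 in library 2, against -0.30 and -0.57 over all tested genes. Cox6a1, the general form of a subunit that regulates activity, was at 517 and 583 FPKM in controls and at 220 and 175 with siRNA. The groups were far apart and each was tight, with means of 550 ± 46.2 and 198 ± 31.6 FPKM (SD, n = 2), which is 36.0% of control (log2 difference -1.48, SE 0.57, adjusted p = 0.745). Cox6a2, its heart and skeletal muscle form, was at 6.72 and 6.11 FPKM in controls and at 9.45 and 0 with siRNA, so the siRNA libraries lay on either side of the controls.

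Cox6b1, the general form of a subunit on the face toward the intermembrane space where cytochrome c docks, is at chr7:30616861-30626151 with 4 exons, and Cox6b2, known from testis, is at chr7:4751792-4753094 with 4 exons. Cox6b1 was at 222 and 224 FPKM in controls and at 129 and 59.8 with siRNA, all siRNA values below the controls. Cox6b2 was at 1168 and 914 FPKM in controls and at 1106 and 235 with siRNA, so library 1 lay between the controls and library 2 far below them. Log2 differences were -1.33 (SE 0.64, adjusted p = 0.745) for Cox6b1 and -1.02 (SE 0.81, adjusted p = 0.785) for Cox6b2. The testis form was the more abundant per length in every library, with 84.0% and 80.3% of the summed Cox6b FPKM in controls and 89.6% and 79.7% with siRNA. Its share was 82.2% ± 2.62 in controls and 84.7% ± 6.94 with siRNA (SD, n = 2), a difference within the spread. Cox6c had values from 129 to 156 FPKM, both siRNA libraries below both controls, and a log2 difference of -0.25.

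The 6 subunit 7 and 8 genes had a median with an offset of -0.61 from all genes. Cox8a had the highest mean of all members over the 4 libraries, though Cox6b2 was higher in siRNA library 1, and several members, Atp5b the highest, in siRNA library 2. It was at 1420 and 1252 FPKM in controls and at 925 and 120 with siRNA, without overlap but with the siRNA libraries far apart from each other. Its log2 difference was -1.99 (SE 0.94, adjusted p = 0.745), made of -0.53 in library 1 and -3.46 in library 2. Cox7a2l was at 44.9 and 54.8 FPKM in controls and at 28.7 and 5.70 with siRNA. It too was below both controls in both, with a log2 difference of -1.84 (SE 0.89, adjusted p = 0.745).

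Cox7a2, the general form of subunit 7a, was at 417 and 377 FPKM in controls and at 280 and 279 with siRNA. The siRNA values were nearly equal to each other and below both controls (log2 difference -0.50, adjusted p = 0.836). Cox7a1, the heart and muscle form, was at 9.68 and 26.3 FPKM in controls and at 7.96 and 21.7 with siRNA, so the groups overlapped and the spread within each exceeded the difference. Cox7a1 made up 2.27% and 6.50% of the summed Cox7a2 and Cox7a1 FPKM in controls and 2.76% and 7.20% with siRNA. Cox7b was at 238 and 524 FPKM in controls and at 388 and 267 with siRNA, both siRNA values between the controls. Ndufa4, first described in complex I and now placed in complex IV, was at 350 and 566 FPKM in controls and at 610 and 143 with siRNA, outside the controls on opposite sides.

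Cox7c was at 29.2 and 18.1 FPKM in controls and at 11.6 and 4.81 with siRNA, all siRNA values lower (log2 difference -1.49, SE 0.86, adjusted p = 0.745). Its processed pseudogene Gm12338, identical over 192 bases, was listed at 100 and 42.6 FPKM in controls and at 74.7 and 37.9 with siRNA, more than the gene in each library. With the copies added to the gene, Cox7c came to 129, 60.9, 86.3 and 42.7 FPKM in that order, the groups overlapped, and the log2 difference was -0.54.

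The ATP synthase members had a median log2 difference of -0.57 against -0.39 for all genes, an offset of -0.18, with 11 of 15 lower with siRNA (73.3%, beside 64.1% of all tested genes and 80.5% of those of like length, 658 to 1325 bases, 2164 genes). Their median was close in the siRNA libraries, -0.63 in library 1 and -0.51 in library 2. The genes of like length stood at -0.39 and -1.35. The offset was 0.17 after correction for transcript length and 0.059 without siRNA library 1, so its direction depended on these choices. Summed over members, complex IV took 0.882% and 0.928% of the FPKM outside mitochondrially encoded and ribosomal RNA in controls and 0.960% and 0.466% with siRNA. ATP synthase took 0.438% and 0.371% in controls and 0.307% and 0.492% with siRNA. As shares, the siRNA libraries lay on either side of the controls for both complexes, in opposite order. As summed FPKM on the deposited scale, both siRNA libraries lay below both controls for both complexes: complex IV came to 4965 and 5291 in controls and to 4113 and 1627 with siRNA, and ATP synthase to 2464 and 2112 in controls and to 1314 and 1717 with siRNA. The same was true of the FPKM summed over all genes without a failed estimate. That sum was 682864 and 695340 in controls and 595913 and 436175 with siRNA.

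**Figure D2:**
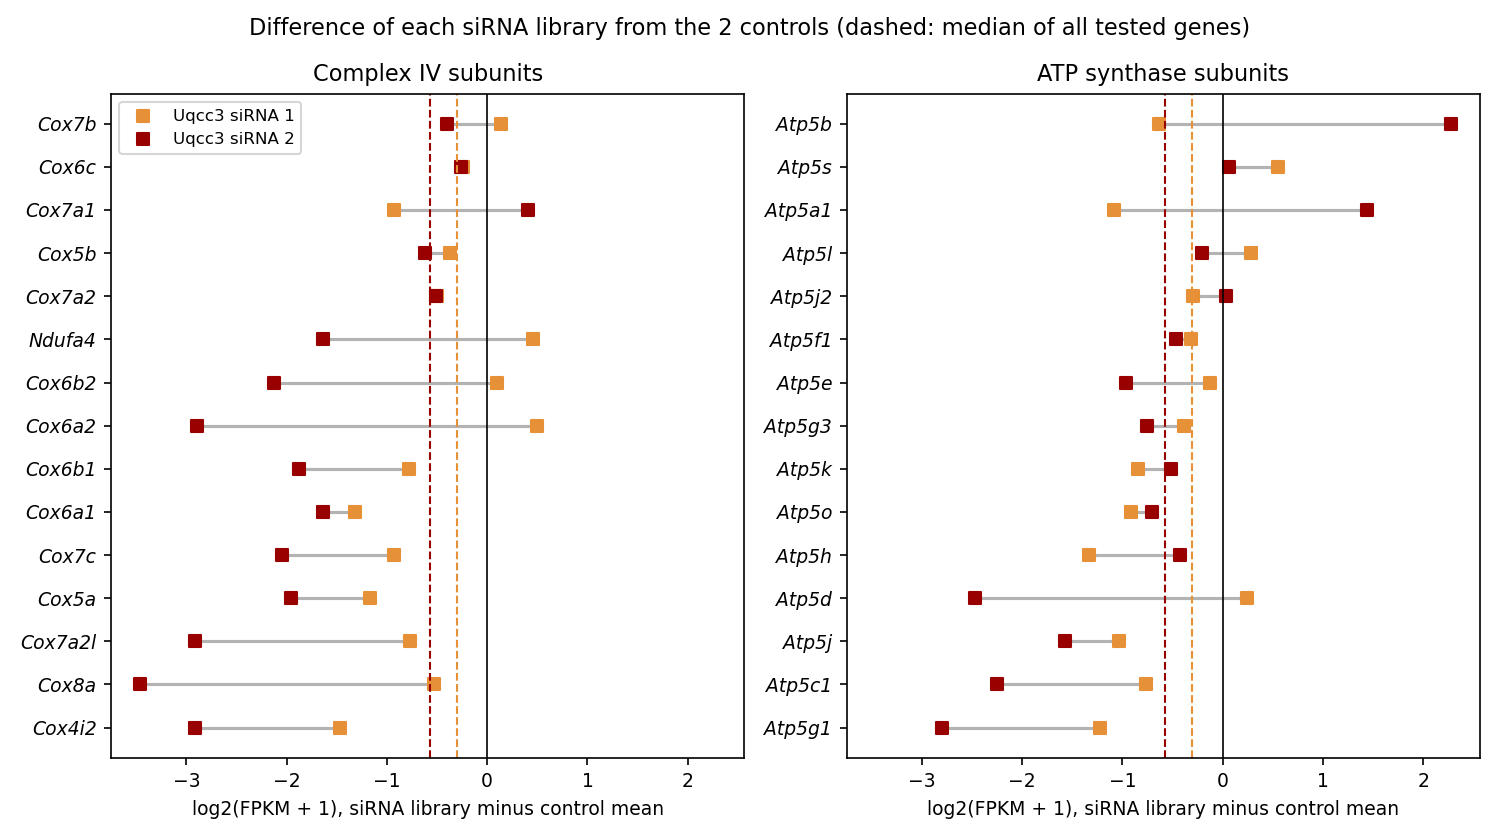
Difference of each siRNA library from the mean of the controls on the log2(FPKM + 1) scale, 1 row per tested member, with dashed lines at the medians of all tested genes (-0.30 in library 1 and -0.57 in library 2). Library 2 reached -3.46 for Cox8a and 2.28 for Atp5b, and the libraries lay close together for Cox6c, Cox7a2, Cox6a1 and Atp5f1.

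The F1 head holds the catalytic subunits, and its 5 members, with the central stalk, had a median of -0.54, an offset of -0.16. Atp5b (beta, which forms the catalytic sites) and Atp5a1 (alpha) are singled out here after their values were seen. Atp5b was at 178 and 134 FPKM in controls and at 99.5 and 753 with siRNA. Atp5a1 was at 23.6 and 15.7 FPKM in controls and at 8.54 and 53.8 with siRNA. Both genes had siRNA library 1 below both controls and library 2 above both, so their log2 differences of 0.82 (SE 0.94) and 0.17 (SE 0.98) average opposite values. For Atp5b these were -0.63 in library 1 and 2.28 in library 2. The transcripts of Atp5a1 (2471 bases) and Atp5b (1916 bases) are the longest among the members.

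Atp5c1, the gamma subunit that turns inside the head, was at 191 and 135 FPKM in controls and at 94.1 and 33.0 with siRNA. Both siRNA values were below both controls, at 39.0% of the control mean (log2 difference -1.50, SE 0.71, adjusted p = 0.745). Atp5d (delta) and Atp5e (epsilon), the other parts of the central stalk, had log2 differences of -1.11 and -0.54, over ranges of 0.298 to 7.67 and 63.3 to 138 FPKM. In both, siRNA library 1 lay between the controls and library 2 below them.

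The peripheral stalk keeps the head from turning with the ring, and both siRNA libraries lay below both controls for all 4 of its members (30.0% of all genes). The median log2 difference of these members was -0.85, an offset of -0.46. Genes of the length of ATP synthase members (658 to 1325 bases) had nearly the same median, -0.84. Of those genes, 41.6% had both siRNA libraries below both controls. Atp5j (subunit F6) was at 208 and 185 FPKM in controls and at 95.4 and 65.3 with siRNA. Its means were 197 ± 16.1 and 80.3 ± 21.3 FPKM (SD, n = 2), 40.8% of control, a log2 difference of -1.31 (SE 0.60, adjusted p = 0.745). Its transcript shares 142 bases (19.1%) with Gabpa on the opposite strand, and the kit is not stated to mark strand, so fragments there cannot be assigned with certainty. Gabpa was at 252 and 211 FPKM in controls and at 133 and 79.6 with siRNA.

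Atp5h (subunit d) was at 115 and 113 FPKM in controls and at 44.5 and 84.5 with siRNA. Here the order of the siRNA libraries was the other way round, with library 1 the lower (log2 difference -0.88, SE 0.64, adjusted p = 0.771). Gm10250, a processed pseudogene 98.97% identical to it over 485 bases, was at 109, 123, 46.8 and 72.3 FPKM in the same order of libraries, and with its copies added Atp5h had a log2 difference of -0.92. Atp5o (OSCP, the joint between stalk and head) was at 151 and 115 FPKM in controls and at 69.2 and 79.9 with siRNA, without overlap and with library 1 again the lower (log2 difference -0.81, SE 0.60, adjusted p = 0.773). Atp5f1 (subunit b) had values from 138 to 199 FPKM and a log2 difference of -0.39. Its transcript shares 337 bases (21.0%) with Wdr77 on the opposite strand, so fragments there cannot be assigned with certainty either. Wdr77 was at 68.1 and 48.1 FPKM in controls and at 12.4 and 35.3 with siRNA.

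The c ring is built from 1 mature protein encoded by 3 genes that differ in their import sequence. Atp5g1 was at 757 and 712 FPKM in controls and at 313 and 104 with siRNA. All siRNA values were below the controls, with means of 734 ± 31.9 and 209 ± 147 FPKM (SD, n = 2), 28.4% of control, and it had the smallest p among the members (log2 difference -2.01, SE 0.69, adjusted p = 0.745). Gm10039, whose coding stretch is shown above, was listed at 1708 and 1498 FPKM in controls and at 572 and 68.9 with siRNA. No source used here says how the authors' counting shared fragments between them, so each level is uncertain. With the copy added, Atp5g1 came to 2465, 2210, 885 and 173 FPKM in the same order, with a log2 difference of -2.57 (SE 0.83, adjusted p = 0.746).

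Atp5g3 was at 169 and 109 FPKM in controls and at 103 and 80.0 with siRNA, with library 1 just under control 2 (log2 difference -0.57, SE 0.61, adjusted p = 0.830). Atp5g2 was listed at 0 and 0.260 FPKM in controls and at 0.346 and 0 with siRNA, and its 441-base transcript is identical to the annotated copies Gm10175 and Gm10231, also listed at 0, so its level is uncertain. Atp5g1 made up 81.7% and 86.7% of the summed c-subunit FPKM in controls and 75.1% and 56.6% with siRNA. Its share was 84.2% ± 3.53 in controls and 65.9% ± 13.1 with siRNA (SD, n = 2), and the groups did not overlap. With copies added the shares were 93.6%, 95.3%, 89.5% and 68.4%, again without overlap. These shares are a description, and no test was run on them.

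**Figure D3:**
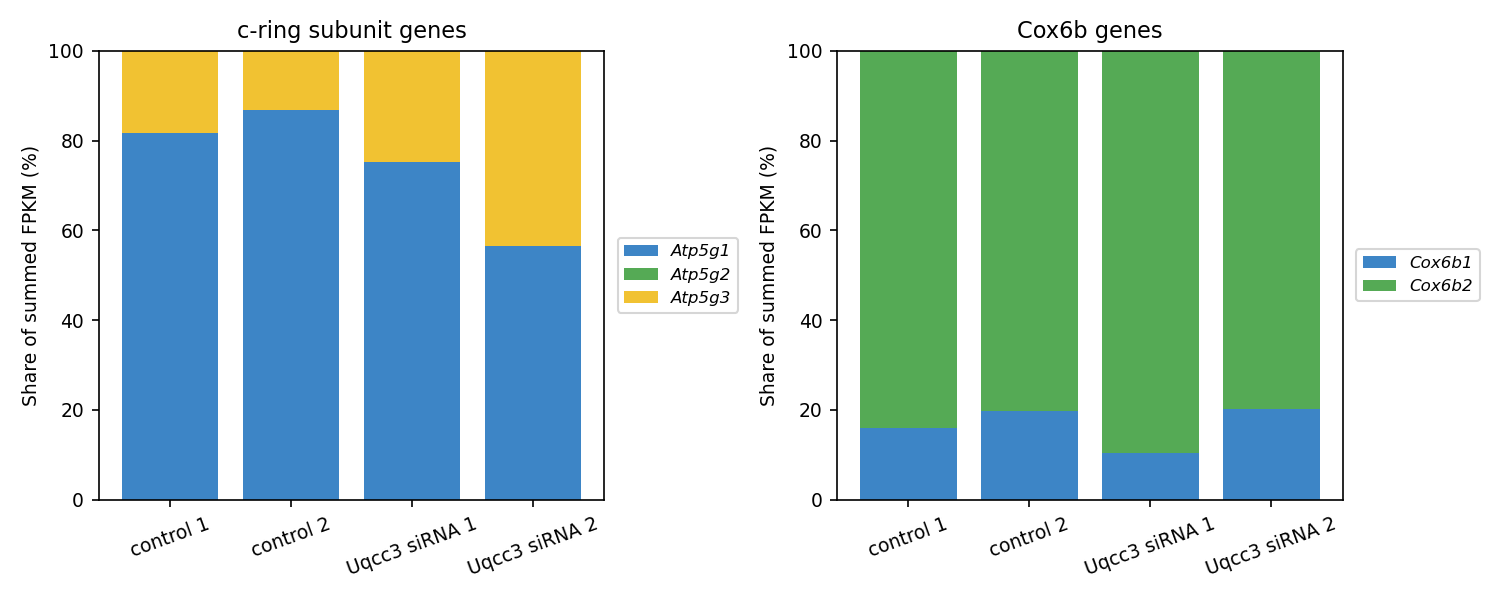
Share of each gene in the summed FPKM of its isoform group, 1 bar per library, for the c-ring genes (left) and the Cox6b genes (right). The Atp5g1 share was under both controls in both siRNA libraries (75.1% and 56.6%), and Cox6b2 held 79.7% to 89.6% everywhere.

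The membrane subunits e, f and g, which help ATP synthase pair into dimers, had a median log2 difference of -0.13, an offset of 0.26, over only 3 genes. Atp5k (e) was between 86.7 and 192 FPKM with both siRNA libraries below both controls (log2 difference -0.68). Atp5j2 (f) was between 117 and 158 FPKM with siRNA library 2 between the controls. Atp5l (g) was at only 1.00 to 1.87 FPKM, while its processed pseudogene Gm10221, identical over 309 bases, was at 22.1 and 21.0 FPKM in controls and at 5.64 and 20.8 with siRNA. With 7 copies added, Atp5l came to 27.2, 22.0, 8.37 and 25.9 FPKM, and its log2 difference was -0.68 in place of 0.035. Atp5s, a coupling factor outside the core enzyme, was between 3.40 and 7.47 FPKM with a log2 difference of 0.31.

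Near-identical copies (at least 95% identity over at least 150 bases) were annotated for 13 members, with 27 copies in the tables and 16 of them at 1 FPKM or more in some library. Most of the gene-plus-copies FPKM was listed under copies for Atp5l (77.6% to 95.9% over the libraries) and Cox7c (70.3% to 88.7%). For Atp5g1 it was 64.7% to 69.3% in controls and siRNA library 1 and 39.7% in siRNA library 2. Cox8a, Cox6a1, Cox6b1, Cox6b2 and Cox5a had no such copy. With copies added, the offset of the complex IV median was -0.63 in place of -0.81 and that of ATP synthase -0.21 in place of -0.18. FPKM are per length, so such sums are approximate.

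**Figure D4:**
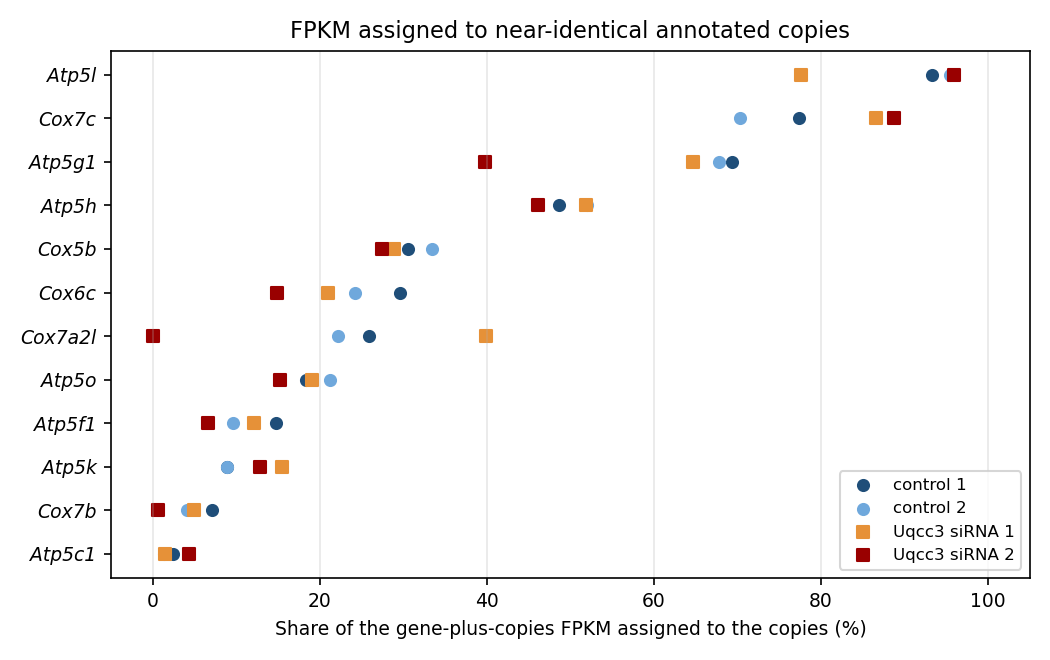
Share of the gene-plus-copies FPKM that is listed under near-identical annotated copies, 1 row per member, circles for controls and squares for siRNA. The share was above 70% for Atp5l and Cox7c in every library, and for Atp5g1 it was lower in siRNA library 2 (39.7%) than in the others.

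Length set the members apart from other genes. The median transcript length was 685.5 bases over the 30 tested members, 618 in complex IV and 838 in ATP synthase, against 2180 over all tested genes. In siRNA library 2 the median log2 difference was -1.46 over the 2474 shortest genes (up to 952 bases) and 0.36 over the 2471 longest (4066 bases or more), while in library 1 these were -0.30 and -0.23. Members under 1000 bases (23) had a median of -1.58 in library 2, and the 7 longer ones -0.40. In library 1 the medians were -0.53 and -0.63. Across the 30 members, log2 difference and log2 length had a Pearson r of 0.39 and a Spearman rho of 0.18 in library 2, and 0.026 and 0.044 in library 1, as a description over genes that share libraries. What part length had in the difference of a single member was not tested.

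**Figure D5:**
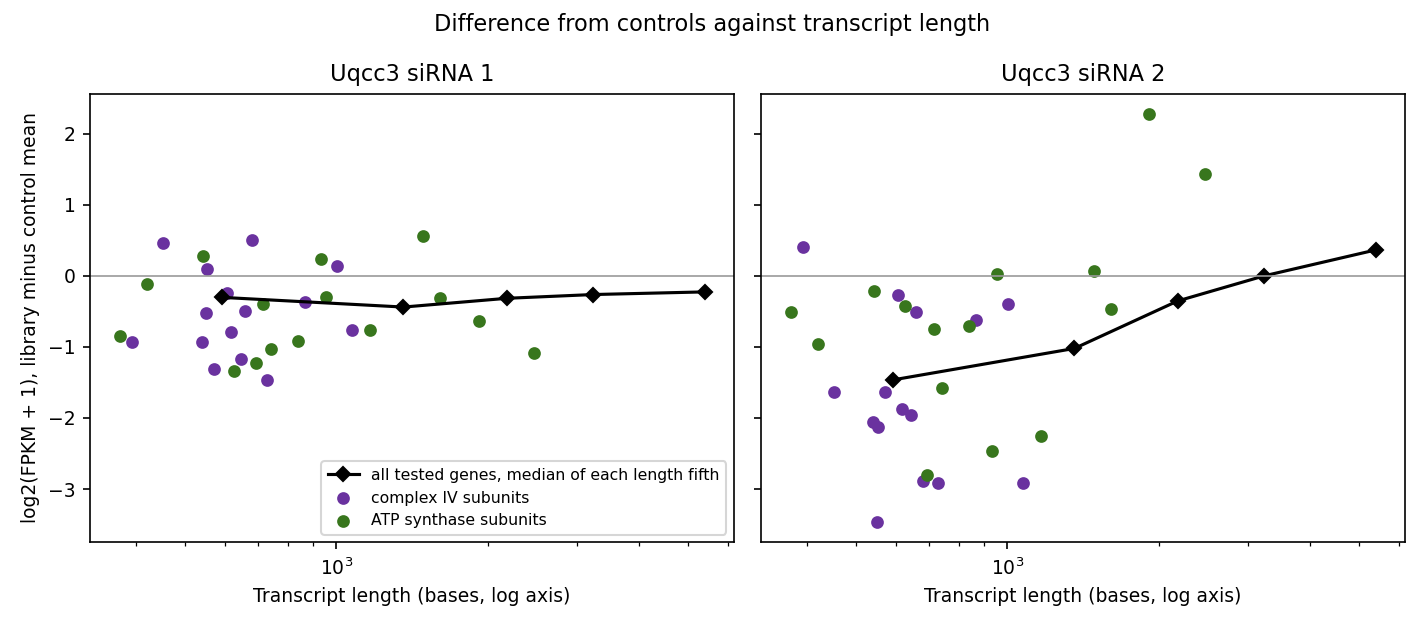
Difference from the control mean on the log2(FPKM + 1) scale against transcript length (log axis) in siRNA library 1 (left) and library 2 (right), with members as points and medians of all tested genes in 5 length classes as a line. The line is nearly flat in library 1 (-0.30 at the shortest class, -0.23 at the longest) and climbs from -1.46 to 0.36 in library 2.

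Calls depended on which siRNA library was used. Without siRNA library 1, so with siRNA library 2 alone against the controls, 1477 genes passed, 1199 lower (9.68%) and 278 higher (2.24%), and among them were 8 members, under the assumption that the lone library varies like the controls. Cox8a (-3.46), Cox7a2l (-2.92), Atp5g1 (-2.80), Atp5c1 (-2.25), Cox6b2 (-2.13), Cox6b1 (-1.88) and Cox6a1 (-1.64) were lower and Atp5b (2.28) was higher, with adjusted p from 0.0220 to 0.0417 in limma. Without siRNA library 2, 0 genes passed, 1008 had an unadjusted p under 0.05, and 23 of 30 members lay lower.

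The listed values of the mitochondrially encoded subunits of the same enzymes varied widely between the controls. They also varied widely between genes. Near-identical copies of these genes were not searched, so each level is uncertain. mt-Co1, the catalytic subunit of complex IV, was at 2895 and 4527 FPKM in controls and at 6844 and 727 with siRNA, on either side of the controls. mt-Co2, with the copper site that takes electrons from cytochrome c, was at 2.16 and 19.4 in controls and at 10.9 and 8.49 with siRNA, and mt-Co3 was at 2.25, 19.4, 8.22 and 1.22. mt-Atp6, the proton channel of ATP synthase, was at 18.5 and 108 FPKM in controls and at 85.5 and 7.09 with siRNA, and mt-Atp8 at 11.1, 75.4, 14.7 and 0. Controls alone differed several-fold for 4 of these 5 genes, and none passed (adjusted p 0.745 to 0.942). The lowest value was that of siRNA library 2 for mt-Co1, mt-Co3, mt-Atp6 and mt-Atp8.

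Assembly factors of complex IV gave a median log2 difference of -0.60 over 24 tested of 27, with 16 lower, 8 higher and 0 passing. Over all tested genes the median was -0.39, and 64.1% were lower. Both siRNA libraries were below both controls for 10 of them (30.0% of all tested genes) and above for 2 (8.6%). Pet100, which helps form the holoenzyme, was at 21.0 and 27.2 FPKM in controls and at 7.70 and 1.08 with siRNA, and Surf1, the assembly factor lost in a form of Leigh syndrome, at 30.5, 15.5, 6.25 and 2.73. Coa7 was at 33.1, 33.2, 18.4 and 2.56 FPKM. Cox19, a copper-handling factor, was listed at 0 in each control, and at 2.55 and 1.80 FPKM with siRNA.

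ATP synthase assembly and associated genes had 6 of 7 lower (64.1% of all tested genes), a median of -0.60 (-0.39 over all tested genes) and 0 passing. Atpaf2, a chaperone of the alpha subunit, was at 30.4 and 28.3 FPKM in controls and at 23.5 and 1.64 with siRNA, and Atpif1, the inhibitor of ATP hydrolysis, at 436, 480, 446 and 149. Tmem70, which promotes c-ring assembly, was at 24.4, 35.0, 27.6 and 7.84 FPKM, and Atpaf1, a chaperone of the beta subunit, at 2.17, 0, 1.69 and 1.65. In the first 3 of these, siRNA library 1 lay closer to the controls and library 2 below both of them.

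Around the enzymes, genes of nucleotide and phosphate transport had 7 of 8 tested lower (64.1% of all tested genes), a median of -0.71 (-0.39 over all tested genes) and 0 passing. The germ-cell ADP/ATP carrier Slc25a31 was at 78.2 and 72.7 FPKM in controls and at 40.7 and 26.6 with siRNA, above the muscle form Slc25a4 (3.38, 10.5, 5.32 and 1.37) in each library. A further ADP/ATP carrier, Slc25a5, was at 41.4, 154, 76.1 and 43.9 FPKM, above Slc25a31 in all libraries except control 1. The outer-membrane channel Vdac1 was at 46.5, 18.5, 14.7 and 4.84 FPKM, and Vdac2 at 142, 76.0, 92.5 and 5.43. Both cytochrome c genes were listed at low values: Cycs was at 1.20, 2.18, 4.32 and 1.97 FPKM, and the testis form Cyct at 2.82, 0, 5.63 and 8.35. Near-identical copies were searched for the members only, so the levels of these genes are uncertain. Of other tissue-restricted complex IV isoforms, Cox8c (testis) was at 15.5, 5.57, 12.5 and 0.463 FPKM, Cox7b2 at 4.04, 5.76, 0 and 0.388, and Cox8b was listed at 0 in all 4.

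Transcription factors known for respiratory chain genes had 6 of 7 tested lower (64.1% of all tested genes), a median of -0.78 (-0.39 over all tested genes) and 0 passing. Gabpb2 was at 26.6 and 64.2 FPKM in controls and at 19.2 and 5.85 with siRNA, and Gabpb1 at 246, 139, 89.5 and 125, both partners of Gabpa. Yy1 was at 13.9, 15.9, 16.1 and 82.4 FPKM. Both siRNA values lay above both controls (8.6% of all tested genes), library 1 barely above control 2 and library 2 far above.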

How the data were processed

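RNA was measured in 4 libraries (2 control, 2 Uqcc3 siRNA), grouped by treatment label and numbered in accession order. The authors deposited 1 table of FPKM per library with lower and upper bounds, per the file headers. Tools listed in the submitters' processing notes, with build mm10, are Cuffdiff 2.2.1, Cufflinks 2.2.1, SAMtools 1.7, STAR 2.7.3a and Trim Galore 0.6.5. The annotation release and any stranded setting are not given in the sources used here, and 99.1% of the gene identifiers matched GENCODE M21, which gave lengths, coordinates and copies. Rows of 1 gene identifier were summed.

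Genes at 1 FPKM or more in at least 2 libraries were tested, without 2 genes that the file status marks as failed, in R 4.3.3 by limma 3.58.1, with values as log2(FPKM + 1) and the trend option, two-sided, with Benjamini-Hochberg adjustment over 12390 genes and a threshold of 0.05. Fold changes on this scale understate changes of low genes. Depth was inferred from the distance of the upper bound in genes with 1 transcript and covers counting error only. Length is that of a principal transcript (that of median length where there are several), which need not be the one expressed. The script was tested on simulated data.

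All members were named, with values in every library for the 12 smallest p, the 6 highest means and isoform groups, and of each context list the 4 smallest p. A few other genes of the lists were added for comparison after their values were seen. Members and lists were chosen with earlier results of these data known. Alternatives covered the pseudocount, filters, 4 scalings, the trend, length, and leaving out each library. Adding copies was chosen after seeing the data.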

Additional observations from a re-analysis of the deposited data

How the results depend on the processing

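Under all the alternatives run for them (14 for each, 13 for Cox4i2, which is under the filter at 5 FPKM), 14 members kept their direction (Cox4i2, Cox5a, Cox6a1, Cox6b1, Cox7a2l, Cox7c, Cox8a, Atp5c1, Atp5g1, Atp5g3, Atp5h, Atp5k, Atp5o and Atp5j). The other 16 had a main log2 difference of at most 1.20 in size. Leaving out 1 library gave 0 to 1477 genes past the threshold, 0 to 7 members lower and 0 to 1 higher, the upper ends without siRNA replicate 1; no other alternative gave a call. The offset of the complex IV median from all genes (-0.81) was -1.31 to -0.22 over left-out libraries. The offset of the ATP synthase median from all genes (-0.18) was -0.51 with no filter on low values and 0.17 with length correction, and -0.35 to 0.059 over left-out libraries. Log2 differences that changed sign were, rescaled to TPM, 0.18 for Cox6c, 0.15 for Cox7a1, 0.30 for Cox7b, 0.039 for Atp5f1 and 0.30 for Atp5j2. With median-of-ratios scaling the same genes stood at 0.17, 0.13, 0.29, 0.031 and 0.29. With quantile normalization they stood at 0.25, 0.030, 0.50, 0.11 and 0.39, and Cox7a2 at 0.11. Rescaled without mitochondrially encoded and ribosomal RNA genes they stood at 0.30, 0.26, 0.42, 0.15 and 0.42, with Cox5b at 0.051, Cox7a2 at 0.047 and Atp5e at 0.00018. With length correction Cox5b stood at 0.011, Cox6c at 0.27, Cox7a1 at 0.20, Cox7a2 at 0.024, Cox7b at 0.33, Atp5a1 at -0.034 and Atp5j2 at 0.35. With copies added, Atp5l stood at -0.68. Over left-out libraries the values ran from -2.89 to 0.50 for Cox6a2, -2.13 to 0.10 for Cox6b2, -0.94 to 0.42 for Cox7a1, -0.70 to 0.43 for Cox7b, -1.63 to 0.45 for Ndufa4, -1.09 to 1.44 for Atp5a1, -0.63 to 2.28 for Atp5b, -2.47 to 0.24 for Atp5d, -0.29 to 0.031 for Atp5j2, -0.21 to 0.28 for Atp5l and -0.084 to 0.70 for Atp5s. The cause of these changes was not tested. Unadjusted p was under 0.05 for 149 to 4146 genes over left-out libraries. No paired analysis was possible because the labels carry no replicate numbers, and the numbers in the names of the deposited tables were not used to pair libraries. With 2 libraries a group, small differences are not detectable, and levels near 1 FPKM, such as that of Atp5l, rest on few fragments.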
